A study of Homo sapiens with 4 samples.

Results

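Chromatin at 10 genes of the Notch pathway was described from ChIP-seq region lists of CHD5 and of H3K27me3. The genes were 3 receptors (NOTCH1, NOTCH2 and NOTCH3), 4 ligands (DLL1, DLL3, JAG1 and JAG2) and 3 targets (HES1, HES5 and HEY1). Every listed region within 20 kb of a gene's hg19 span was taken, with spans given to the nearest kb. This left 16 of 32543 CHD5 peaks and 100 of 257073 H3K27me3 regions. The rule that took the regions used their position only, while the genes were chosen with earlier results of these data known.

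The study used SH-SY5Y, a neuroblastoma line of human origin whose cells grow neurites and resemble neurons under retinoic acid, and asked where the chromatin remodeller CHD5 sits relative to Polycomb repression. All 4 libraries came from cells kept in 10 uM retinoic acid for 8 days. They were a streptavidin pull-down from cells expressing tagged CHD5 (FBio-CHD5), an H3K27me3 precipitation from the same cells, a streptavidin pull-down from cells expressing the control construct (Fbio-Ctrl), and input DNA from FBio-CHD5 cells, with 1 library each. CHD5 was therefore a tagged protein expressed from a construct, and no cells without retinoic acid were included. Only the region lists of the CHD5 and H3K27me3 libraries were used here. Neither list gives read numbers, which leaves depth unknown, and no value has a replicate error or a test. They hold no RNA values either, so neither the cell line's markers nor the activity of any Notch gene could be checked.

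Notch receptors sit in the membrane and are cleaved when a Delta or Jagged ligand on a neighbouring cell binds them. The freed intracellular domain joins the DNA-binding protein RBPJ and switches on HES and HEY genes, whose products are basic helix-loop-helix repressors that hold back neuronal differentiation. CHD5 is a nucleosome-remodelling helicase expressed mainly in neurons and testis. H3K27me3 is the mark written by Polycomb repressive complex 2, and wide stretches of it usually cover silent developmental genes.

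The stretch just before the transcription start is shown for 4 genes, those with a strand and promoter entry whose start lay within 2 kb of a listed region. HES1 and NOTCH3 had CHD5 there, and HES5 and NOTCH2 had H3K27me3. The 250 bases before each start were read from RefSeq promoters of build GRCh38.p14, which is not the build of the lists, and 7 of the 10 genes had an entry. DLL1, DLL3 and HEY1 had none. The stretches are HES1 at chr3:194135898-194136147 on the plus strand, and NOTCH3 at chr19:15200996-15201245, HES5 at chr1:2530264-2530513 and NOTCH2 at chr1:120069663-120069912 on the minus strand. Capitals mark the RBPJ core TGGGAA and the N-box CACNAG, a site bound by HES proteins, on either strand.
HES1: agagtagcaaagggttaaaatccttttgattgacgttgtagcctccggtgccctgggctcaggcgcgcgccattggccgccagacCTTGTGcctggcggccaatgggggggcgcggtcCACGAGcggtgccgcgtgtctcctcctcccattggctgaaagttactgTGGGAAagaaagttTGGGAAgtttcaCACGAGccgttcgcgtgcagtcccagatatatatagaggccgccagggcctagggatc
NOTCH3: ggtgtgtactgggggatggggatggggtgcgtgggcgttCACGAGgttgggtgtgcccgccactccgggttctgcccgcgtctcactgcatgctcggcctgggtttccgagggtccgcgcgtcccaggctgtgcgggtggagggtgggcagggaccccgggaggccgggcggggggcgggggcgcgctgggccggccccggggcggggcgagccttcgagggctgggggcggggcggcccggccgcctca
HES5: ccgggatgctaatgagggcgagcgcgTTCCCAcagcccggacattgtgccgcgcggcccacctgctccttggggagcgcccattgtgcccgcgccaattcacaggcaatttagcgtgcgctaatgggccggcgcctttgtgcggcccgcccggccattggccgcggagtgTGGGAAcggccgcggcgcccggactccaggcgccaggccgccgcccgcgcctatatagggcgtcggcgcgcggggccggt
NOTCH2: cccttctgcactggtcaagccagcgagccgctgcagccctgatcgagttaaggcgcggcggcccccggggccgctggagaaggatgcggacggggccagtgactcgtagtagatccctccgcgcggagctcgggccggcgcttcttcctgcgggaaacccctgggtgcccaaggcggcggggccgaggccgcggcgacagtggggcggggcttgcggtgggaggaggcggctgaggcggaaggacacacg

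HES1 held 2 RBPJ cores, both on the gene's strand, from 84 to 79 and from 70 to 65 bases before the start. It also held 3 N-boxes, from 165 to 160, 132 to 127 and 58 to 53 bases before the start, the first of them on the opposite strand. HES5 held 2 RBPJ cores, from 224 to 219 bases on the opposite strand and from 80 to 75 on its own, and no N-box. NOTCH3 held 1 N-box, from 211 to 206 bases before the start, and NOTCH2 held neither motif. The E-box CANNTG occurred once in HES5, from 192 to 187 bases before the start, and not in the other 3, and no match overlapped one of another motif. Of 34941 RefSeq promoters, 20.9% held an RBPJ core, 32.1% an N-box and 61.8% an E-box in the same 250 bases. A match describes letters only. GC content was 59.2% at HES1, 78.0% at NOTCH3 and 72.8% at both HES5 and NOTCH2, against a median of 58.0% over all promoters. HES1 was close to that median, and 47.8% of promoters were at least as GC-rich. The ratio of observed to expected CpG was 0.831 at HES1, 0.795 at NOTCH3, 1.09 at HES5 and 0.897 at NOTCH2, against a median of 0.56. NOTCH1, JAG1 and JAG2, whose starts had neither mark within 2 kb, also lay above both medians, with GC contents of 76.0%, 68.4% and 81.6% and CpG ratios of 0.941, 0.592 and 0.922.

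CHD5 was listed at 8 of the 10 genes, H3K27me3 at 5, and both at 4. With H3K27me3 scores at or above the list median of 84.6, H3K27me3 was at 2 genes and both marks at 1. The genome was cut into 60-kb tiles as a background, the tile being the median length of a gene's window. Of these tiles 36.2% held a CHD5 peak, 31.0% an H3K27me3 region and 6.16% both. These shares depend on tile length and had no score limit. At the 199 kb of the NOTCH2 window, 62.5% of tiles held a CHD5 peak and 49.2% an H3K27me3 region. At the 42 kb of the HES5 window, the shares were 29.1% and 27.3%. The tiles include stretches without genes, and the share of genes elsewhere that carry either mark was not examined. CHD5 peaks came to 21.3 per Mb of the genes' windows, against 10.7 per Mb over chromosomes 1 to 22 and X. H3K27me3 regions came to 133 per Mb, against 84.5, but NOTCH2 supplied 75 of the 100. Without NOTCH2 the pooled figure was 45.3 per Mb, from 25 regions, of which DLL1 supplied 19. By role, CHD5 peaks numbered 5 at receptors, 4 at ligands and 7 at targets, or 13.4, 16.3 and 53.4 per Mb. H3K27me3 regions numbered 78, 21 and 1. The windows differed in length, from 42 to 45 kb at targets, 49 to 77 kb at ligands and 82 to 199 kb at receptors. Densities by role are therefore not like for like. At targets, the 3 HES5 peaks and the second peaks of HES1 and HEY1 lay outside the spans.

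**Figure D1:**
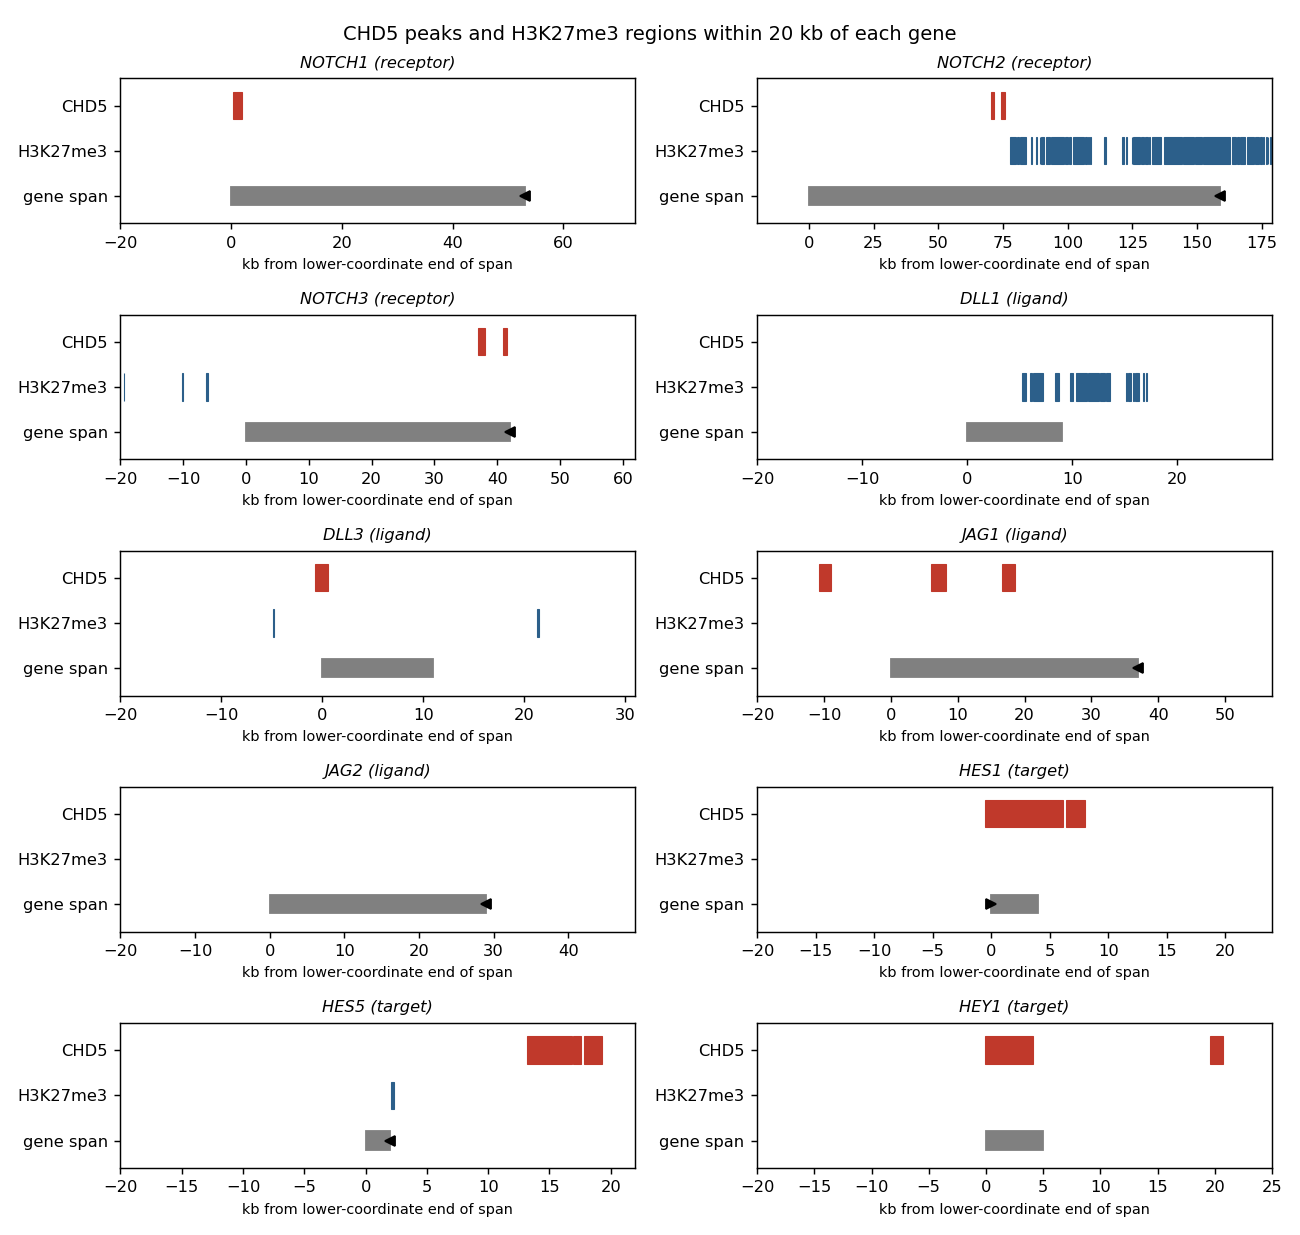
Position of CHD5 peaks (red) and H3K27me3 regions (blue) from 20 kb before to 20 kb after each gene span (grey), in kb from the lower-coordinate end of the span, with a black arrowhead at the start where the strand was in the promoter table. CHD5 covers the HES1 span and most of the HEY1 span, and JAG2 has neither mark. H3K27me3 regions lie, with gaps between them, across the start-side part of NOTCH2 and one side of DLL1.

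Among the targets, HES1 carried the widest and highest-scoring of the 16 CHD5 peaks. HES1 encodes a repressor that cycles in neural progenitors and keeps them undifferentiated. Its span lies on chromosome 3 from 193853000 to 193857000. The peak ran from 193852529 to 193859058, a width of 6530 bp, and covered 100% of the span, start included. Its score, a value given by the authors' peak caller, was 1467. Only 63 peaks, or 0.194% of the CHD5 list, scored at least as high, and 1.02% were at least as wide. A second peak of 1578 bp and score 193 followed 0.328 kb further on, from 193859387 to 193860964. The next CHD5 peak beyond the 20-kb limit lay 26.5 kb from the span with a score of 507. In all, 8 CHD5 peaks lay within 100 kb of HES1, or 39.2 per Mb. The nearest H3K27me3 region lay 581 kb from the gene.

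HEY1, a related repressor of the hairy family, also had a CHD5 peak over most of its span. Its strand was not in the promoter table, so whether the peak covered its start is unknown. Its span lies on chromosome 8 from 80676000 to 80681000. A CHD5 peak of 4206 bp and score 442 ran from 80675918 to 80680123 and covered 82.5% of the span, from its lower end to within 0.9 kb of its upper end. In the CHD5 list 7.66% of peaks scored at least as high and 4.96% were at least as wide. A further peak of 1041 bp and score 162 lay 14.6 kb above the span, toward LINC01607 in the gene order of GRCh38. Within 100 kb were 7 CHD5 peaks, or 34.1 per Mb, and the nearest H3K27me3 region was 206 kb away. Of all CHD5 peaks, 43.9% lay at least as far from H3K27me3 as the nearer HEY1 peak.

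HES5 differed from both in that CHD5 lay off the gene. HES5 is a repressor that Notch signalling induces in neural progenitors. Its span is on chromosome 1 from 2460000 to 2462000. No CHD5 peak touched the span. A cluster of 3 peaks lay from 11.2 to 17.3 kb upstream of the start, on the side where TNFRSF14-AS1 is the next gene in the GRCh38 order. Their widths were 3598, 708 and 1494 bp and their scores 93.2, 51.2 and 109, all below the list median of 117. The widest ran from 2473203 to 2476800. The single H3K27me3 region, 144 bp with a score of 54.7, ran from 2462117 to 2462260, or 0.1 kb upstream of the start as given to the nearest kb. In its list 87.6% of regions scored at least as high, so this is a region near the lower limit of the list, which is a score of 50.

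**Figure D2:**
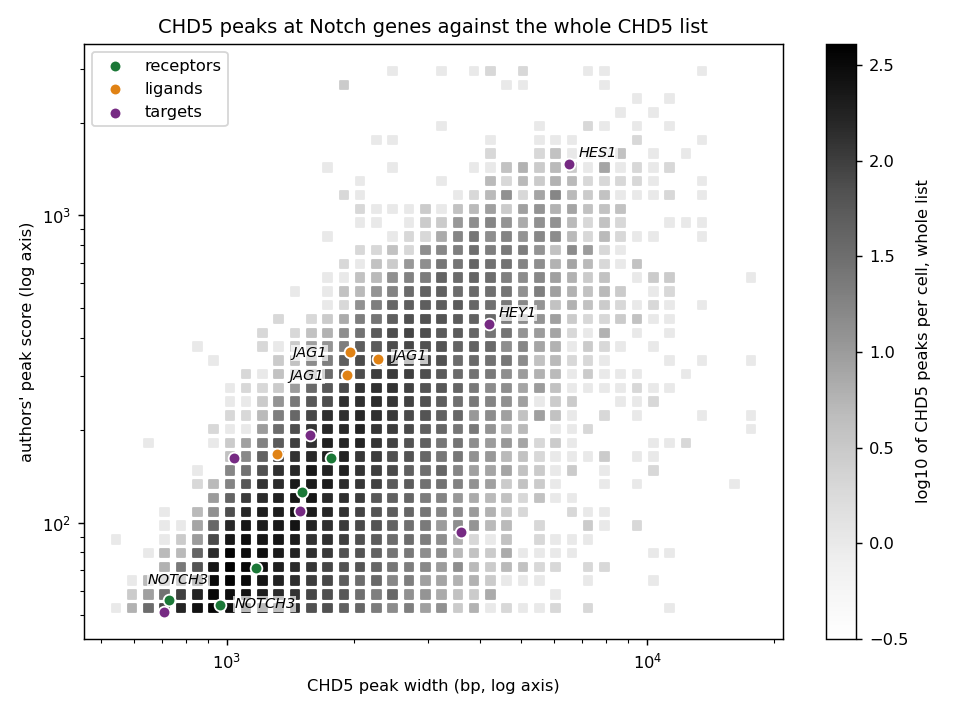
Width in bp and authors' score of the 16 CHD5 peaks at Notch genes, coloured by the gene's role, over the whole CHD5 list (grey cells, shaded by the log10 of the number of peaks); both axes are log scales. HES1, at 6530 bp and 1467, has the widest and highest-scoring of the 16 peaks, though the whole list extends further on both axes. HEY1 and JAG1 lie above the median score of 117, and NOTCH3 lies at the lower edge.

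Of the receptors, NOTCH1 had a single CHD5 peak at the end of the gene. NOTCH1 is a main receptor of neural progenitors, and its span lies on chromosome 9 from 139388000 to 139441000. The peak ran from 139388280 to 139390048, scored 162 and was 1769 bp wide. It lay 51.0 kb downstream of the start and within the last 2.0 kb of the span. It was the single CHD5 peak within 100 kb of the gene, a density of 3.95 per Mb. The nearest H3K27me3 region was 85.7 kb from the span.

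NOTCH3, the receptor known best from vascular smooth muscle, had 2 weak CHD5 peaks near its start. Its span lies on chromosome 19 from 15270000 to 15312000. One peak, from 15310903 to 15311630, lay 0.4 kb inside the start with a width of 728 bp and a score of 56.0. The other, from 15306996 to 15307956, lay 4.0 kb inside with 961 bp and 54.1. In the CHD5 list 92.7% and 95.1% of peaks scored at least as high, so both stand close to the lowest listed score. No H3K27me3 region touched the span, and 3 regions of 147 to 153 bp with scores from 51.7 to 59.9 lay 6.1 to 19.4 kb beyond its far end.

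NOTCH2 was the one receptor under a broad H3K27me3 stretch. Its span lies on chromosome 1 from 120454000 to 120613000 and is read from the upper end. The 75 regions within 20 kb covered 69.8 kb, or 35.1% of the window. Tiles of the same length, 199 kb, held at least that much H3K27me3 in 1.32% of cases, or 201 of 15239. By number of regions NOTCH2 was less unusual, and 8.37% of these tiles held at least 75. The mark divided the gene. The 77.8 kb at the far end of the span had no H3K27me3 region, while 66.5% of the 81.2 kb up to the start was covered, and 79.3% of the 20 kb upstream.

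The highest H3K27me3 scores at NOTCH2 gathered around the start. Over the first 20 kb of the gene 97.0% of bases were covered and the median score of 14 regions was 854. Over the rest of the marked span the median of 44 regions was 131, and in the 20 kb upstream the median of 19 was 216. These stretches were chosen after their values were seen. Of the 75 regions, 6 scored 1000 or more, as did 1.08% of the H3K27me3 list, and these lay from 18.9 kb inside to 3.1 kb upstream of the start. The highest, at 2566, ran from 120603097 to 120606129, and the widest, 4263 bp with a score of 2121, from 120594064 to 120598326. A region of score 1272 from 120612293 to 120614176 spanned the start as given to the nearest kb.

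Joined across gaps of up to 3 kb, and with regions past the 20-kb limit included, the regions formed domains of 83.7, 31.4 and 0.916 kb. The widest, from 120575082 to 120658822, held 87 regions and reached 45.8 kb upstream of the start. It was matched or exceeded in width by 0.34% of the 38537 domains in the list. Joined across gaps of up to 10 kb, 159 regions made a run of 165.3 kb from 120531814 to 120697157, of which 84.2 kb lay upstream of the start. That run was 1 of 18789 domains joined this way, of which 1.38% were at least as wide. Both CHD5 peaks of NOTCH2 stood just outside this run, inside the gene. The nearer, from 120528163 to 120529668 with a score of 126, ended 2.15 kb from the first H3K27me3 region. The other, from 120524409 to 120525579 with a score of 70.9, ended 6.24 kb from it. A further CHD5 peak, 45.8 kb upstream of the gene and so beyond the 20-kb limit, lay within the run and shared 51 bp with H3K27me3.

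NOTCH2 has near-identical partial copies that carry its start-side part. The gene table names NOTCH2NLA, NOTCH2NLB, NOTCH2NLC and NOTCH2NLR, all on chromosome 1. The sources used here do not say how reads that match several copies were placed. H3K27me3 values at NOTCH2 may therefore include reads from the copies, whose part in the result was not tested.

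**Figure D3:**
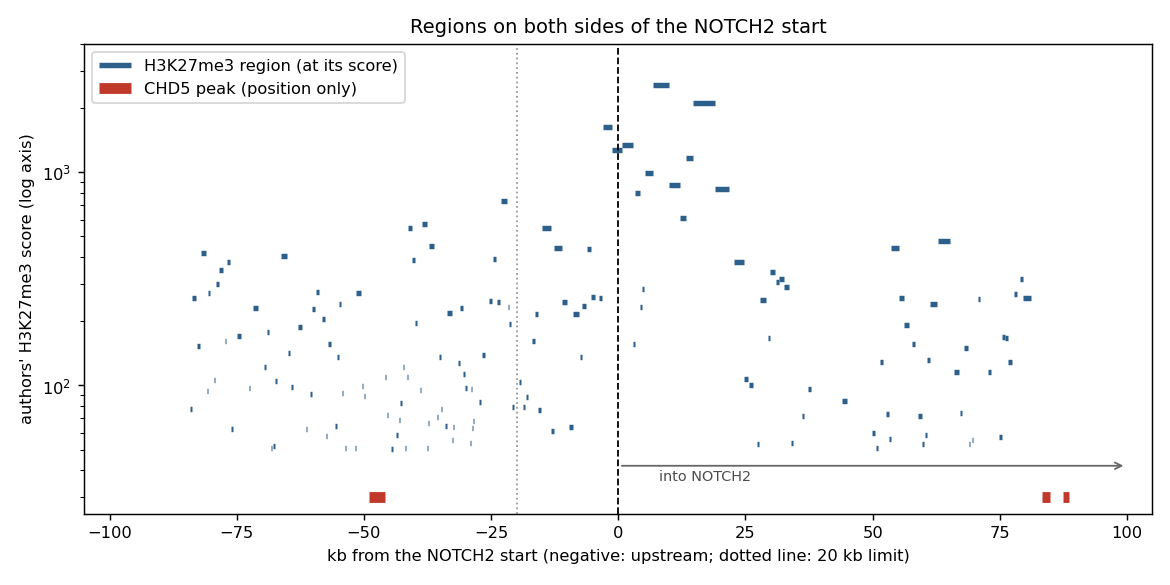
H3K27me3 regions (blue, drawn at their width and authors' score, log axis) against distance from the NOTCH2 start in kb, with upstream at the left, and CHD5 peaks (red, position only). Scores of 1000 or more lie from 18.9 kb inside to 3.1 kb upstream of the start, and the CHD5 peaks inside the gene lie past the last region.

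Among the ligands, DLL1 was the one with a block of H3K27me3. DLL1 is the Delta ligand that progenitors entering neuronal differentiation display to their neighbours. Its span lies on chromosome 6 from 170591000 to 170600000. The 19 regions joined into 1 domain of 11.9 kb from 170596204 to 170608129, with 53.4% of its length covered. It began inside the gene, 5.2 kb above the lower end, crossed the upper end and ran 8.1 kb beyond it, toward FAM120B in the gene order of GRCh38. The region with the highest score, 628, was also the widest at 815 bp and ran from 170601283 to 170602097. Next came 524, from 170602839 to 170603496. Of H3K27me3 regions in the list 2.44% scored at least 628, and 10.97% of domains were at least as wide. Tiles of the same 49-kb length held at least as much H3K27me3 in 7.15% of cases. No CHD5 peak lay within 20 kb, and the nearest was 36.9 kb below the span with a score of 273.

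JAG1 was the reverse of DLL1, with CHD5 and no H3K27me3. JAG1 is the Jagged ligand mutated in Alagille syndrome. Its span lies on chromosome 20 from 10618000 to 10655000. Inside the gene, CHD5 peaks ran from 10634645 to 10636605 with a score of 360 and from 10623976 to 10626260 with a score of 342, at 18.4 and 28.7 kb downstream of the start. A further peak, from 10607174 to 10609105 with a score of 302, lay 8.9 kb past the end of the gene. Their widths of 1961, 2285 and 1932 bp and their scores were close to each other, and each scored above the list median of 117. The start itself had no CHD5 peak within 2 kb. The nearest H3K27me3 region lay 922 kb from the span, and 2.97% of all CHD5 peaks lay at least as far from H3K27me3 as the 911 kb of the nearest JAG1 peak.

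DLL3 and JAG2 carried less. DLL3, an atypical ligand that does not activate receptors on neighbouring cells, has its span on chromosome 19 from 39989000 to 40000000. A CHD5 peak of 1313 bp and score 167, from 39988285 to 39989597, straddled the lower end of the span. The flanks held H3K27me3 regions of 146 and 178 bp with scores of 54.0 and 75.3, at 4.8 and 10.3 kb from the span, and both scores were below the list median of 84.6. JAG2, on chromosome 14 from 105607000 to 105636000, had no region of either list within 20 kb. Its nearest CHD5 peak lay 33.0 kb away with a score of 79.2, and its nearest H3K27me3 region 233 kb away.

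The regions closest to the 20-kb limit stood on either side of it. Just inside lay H3K27me3 regions 19.4 kb from NOTCH3 and 19.1 kb from NOTCH2, and the outermost CHD5 peak lay 15.8 kb from HES5. Just outside it lay an H3K27me3 region 20.5 kb from NOTCH2, with a score of 79.2, and the CHD5 peak 26.5 kb from HES1.

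CHD5 and H3K27me3 did not meet at these genes. Of the 16 CHD5 peaks, 0 shared as much as 1 bp with H3K27me3, and a count of 0 of 16 allows a share of up to 18.8%. In the whole CHD5 list the share was 2.19%, so 16 peaks are too few to show a difference from it. The distances ranged widely. The 16 peaks had a median of 91.8 kb to the nearest H3K27me3 region, against 166 kb over the whole list. Those at NOTCH2, DLL3 and HES5 lay 2.15 to 15.5 kb away and those at NOTCH3 43.1 and 47.0 kb. That at NOTCH1 lay 137 kb away, and those at HEY1 199 and 206 kb. The nearest H3K27me3 region scored 258 at NOTCH2, but 54.0 at DLL3, 54.7 at HES5 and 59.9 at NOTCH3. It scored 50.8 at HES1 and 50.7 at JAG1, and the lowest listed score is 50. Distances to stronger regions only were not examined. The peaks at HES1 lay 580 and 587 kb away, where 10.4% of all CHD5 peaks lay at least as far, and those at JAG1 911 to 938 kb. Strength varied as much. Of the 16 peaks, 10 scored at or above the list median of 117 (50% of the whole list does so by definition), and their median score was 162 against 117. Their median width was 1542 bp, against 1647 bp. Scores spanned 54.1 to 162 at the receptors, 167 to 360 at the ligands and 51.2 to 1467 at the targets, so the range at the targets enclosed the other two.

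**Figure D4:**
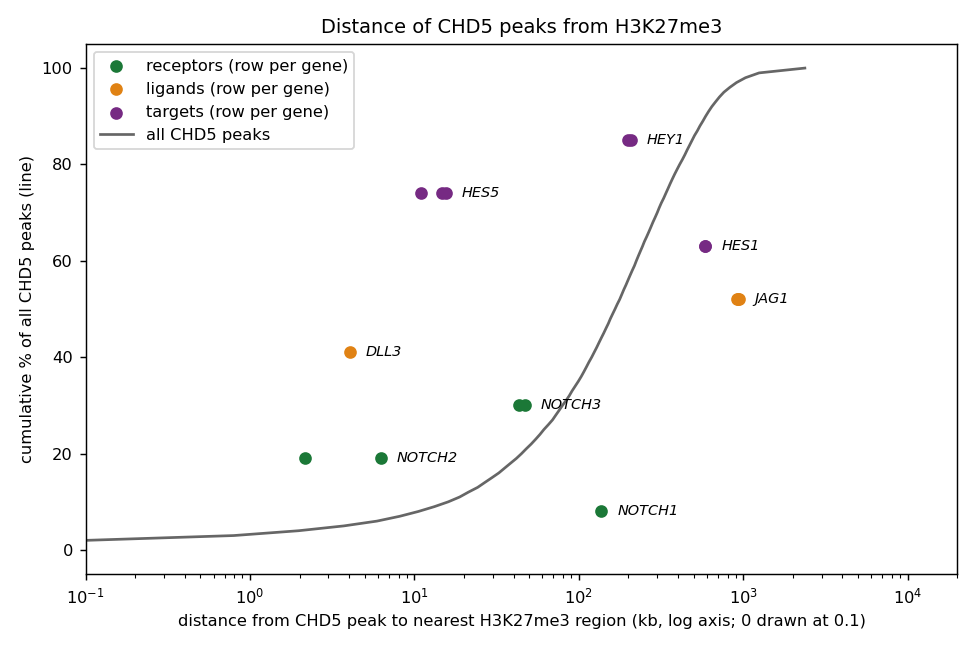
Distance in kb, on a log axis, from each CHD5 peak at a Notch gene to the nearest H3K27me3 region, 1 line of points per gene and coloured by role, with the cumulative percent of all CHD5 peaks as a grey line. NOTCH2, DLL3 and HES5 lie at 2.15 to 15.5 kb, and HES1 and JAG1 at 580 to 938 kb. The regions nearest to the DLL3 and HES5 peaks score 54.0 and 54.7, close to the lowest listed score of 50.

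At the gene starts few regions were listed. Of the 7 genes with a strand in the promoter table, 2 had CHD5 within 2 kb of the start (HES1 and NOTCH3). H3K27me3 was there at 2 (NOTCH2 and HES5). No gene was in both sets, but counts this small cannot show whether the lists keep apart. The share of starts elsewhere with either mark was not examined. NOTCH3, at 56.0, and HES5, at 54.7, stood near the lowest listed score of 50. With scores at or above the median, each count fell to 1. Further genes of the pathway, among them NOTCH4, DLL4, HEY2, HEYL, RBPJ and the MAML genes, have no hg19 position in the sources used here and were not analysed here.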

How the data were processed

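CHD5 and H3K27me3 ChIP-seq regions of SH-SY5Y cells in retinoic acid were used, 1 library each. Per the file headers, both lists are MACS peak calls and name 1 library each. Per the submitters' processing notes, coordinates are hg19. No source used here states the aligner, the version and threshold of MACS or the library it took as background. A call without a matched control would also list places that shear or capture well. MACS builds narrow peaks, so a broad mark is split into short regions. The score per region was deposited by the authors with an unstated scale and a lowest value of 50, and was used only to rank regions within a list.

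Positions are counted from 1. Gene spans came with the choice of genes, to the nearest kb. Strand, promoter sequence and gene order came from RefSeq tables of GRCh38.p14, whose gene coordinates were not used for the lists. All members were described: their highest-scoring, widest and start-nearest regions in full and the rest by range. Members and lists were chosen with earlier results of these data known. Tiles of 60 kb over chromosomes 1 to 22 and X, up to the highest region end, gave the background shares. Limits from counts of 0 used 3 counts and cover counting error only. Interval routines matched brute force in 40 of 40 simulations. Python 3.11.15, numpy 2.4.6, pandas 2.3.3 and matplotlib 3.10.9 were used. Alternatives changed the distance, score limit, overlap, joining and tiles, and leaving out NOTCH2 was chosen after seeing the data.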

Additional observations from a re-analysis of the deposited data

How the results depend on the processing

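Of 70 alternative values, 47 stayed within 1.5 times the reported count and 23 moved beyond it. Some of the 47 could not change, such as counts of 1 list under a score limit on the other. The tally is therefore not a measure of stability. No paired analysis was possible because each group has 1 library, and for the same reason no replicate could be left out. Counting regions that touch the span left H3K27me3 at 2 genes, both marks at 1, 10 CHD5 peaks and 62 H3K27me3 regions. Both marks were at 2 genes within 5 kb. Wider distances gave 28 and 46 CHD5 peaks and 153 and 295 H3K27me3 regions within 50 and 100 kb, with 1 CHD5 peak overlapping H3K27me3 at either distance, near NOTCH2. These follow from the distance itself. With CHD5 scores at or above the median, both marks were at 2 genes, 10 CHD5 peaks remained and CHD5 was at 1 start. With H3K27me3 scores at or above the median, H3K27me3 was at 2 genes (NOTCH2 and DLL1), both marks were at 1, H3K27me3 was at 1 start, and the 10 domains became 4. All regions at NOTCH3, DLL3 and HES5 scored below that limit. Domains numbered 17 with joining up to 1 kb and 6 with joining up to 10 kb. Without NOTCH2, 25 H3K27me3 regions were left. Among tiles with a region of either list, 59.3% held CHD5 and 50.8% H3K27me3. The overlap was also 0 with at least 50% of the peak covered, within 1 kb and against domains joined across 3 kb. None of these could have given another value, since 0 peaks shared 1 bp with H3K27me3 and the nearest lay 2.15 kb away. Depth is unknown in these lists, so a gene without a region may be one where the mark was below detection.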
